A study of Mus musculus with 15 samples.

Results

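The genes described here are 10 members of the insulin-like growth factor (IGF) system in the embryonic mouse lung: the ligand gene Igf1, the receptor gene Igf1r, the binding protein genes Igfbp2, Igfbp3, Igfbp4, Igfbp5, Igfbp6 and Igfbp7, and the receptor substrate genes Irs1 and Irs4. They were taken by symbol, and all 10 are among the 23420 genes of each raw count table. The set was selected on measured values of these same libraries, the pressure and stage comparisons included, so the values of the members below are a description and carry no p-value. All lungs came from wildtype mouse embryos of the CD1 strain, an outbred stock, and no group carried an engineered allele. In 1 experiment lungs explanted at E12.5 (an embryonic day) were kept ex vivo for 48 h under low or under high transmural pressure, that is, pressure of the airway lumen relative to the outside. In the other, lungs were taken straight from embryos of stage E12.5, of E13.5 or of E14.5. Each of the 5 groups has 3 libraries. A library held RNA of 6 pooled lungs at E12.5 and at low pressure, and of 3 at high pressure, E13.5 and E14.5. Pool size therefore changes with pressure and with the step from E12.5, and its part cannot be told apart from theirs. The labels do not say whether the libraries were separate litters or cultures, so the errors measure only the spread between these libraries.

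Insulin-like growth factors are secreted peptides that drive growth and survival of fetal tissues. They act through a receptor tyrosine kinase, encoded by Igf1r, which phosphorylates docking proteins of the insulin receptor substrate family and so engages PI3 kinase and AKT. Outside the cell the factors are held by a family of binding proteins that can store, deliver or sequester them, and that are themselves cut by dedicated proteases.

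The libraries held 31843739 to 44341263 counts in the cultured lungs and 18837343 to 21955244 in the freshly isolated ones, and no library had the same counts as another within sampling noise. The lung epithelial regulator Nkx2-1 was found in every group (group means of 80.4 to 176 CPM, raw counts scaled to a common library size), and so was each list of lung epithelial and mesenchymal markers. Library features touch the results in 2 ways. First, 82 ribosomal protein genes took 1.92% to 2.19% of counts in the low pressure libraries and 3.05% to 3.36% in the high pressure ones. In the fresh lungs replicate 1 of each stage had 3.57% to 4.34%, against 1.75% to 2.22% in replicates 2 and 3. Second, replicate 1 of each stage stood apart from replicates 2 and 3 over all genes (correlations of deviations from the stage means of 0.837 to 0.880 within replicate 1 and of -0.794 to -0.614 with the others). Libraries numbered 2 and 3 were no more alike with their own number (0.490 to 0.677) than with the other (0.525 to 0.704). For the stages a fit with the replicate number as a block, which mainly removes the offset of replicate 1, is given beside the fit without it. In bulk RNA, fewer cells of a type and less RNA per cell cannot be told apart.

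At high pressure the set of binding proteins changed its make-up. Igfbp7 was 6.31-fold and Igfbp6 3.63-fold higher than at low pressure, Igfbp5, the most abundant of the 6 per length, was 1.62-fold lower, and Irs4 was 15.1-fold lower. In the count model (edgeR, adjusted p under 0.05 over all genes tested) 7 of the 10 genes were called, 3 of them higher and 4 lower, where 26.1% of 14937 tested genes were called, 14.0% higher and 12.2% lower. Because the set was chosen with this contrast known, nothing is read from that count. The median log2 fold change of the 10 genes was -0.35, beside 0.01 for all genes tested.

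**Figure D1:**
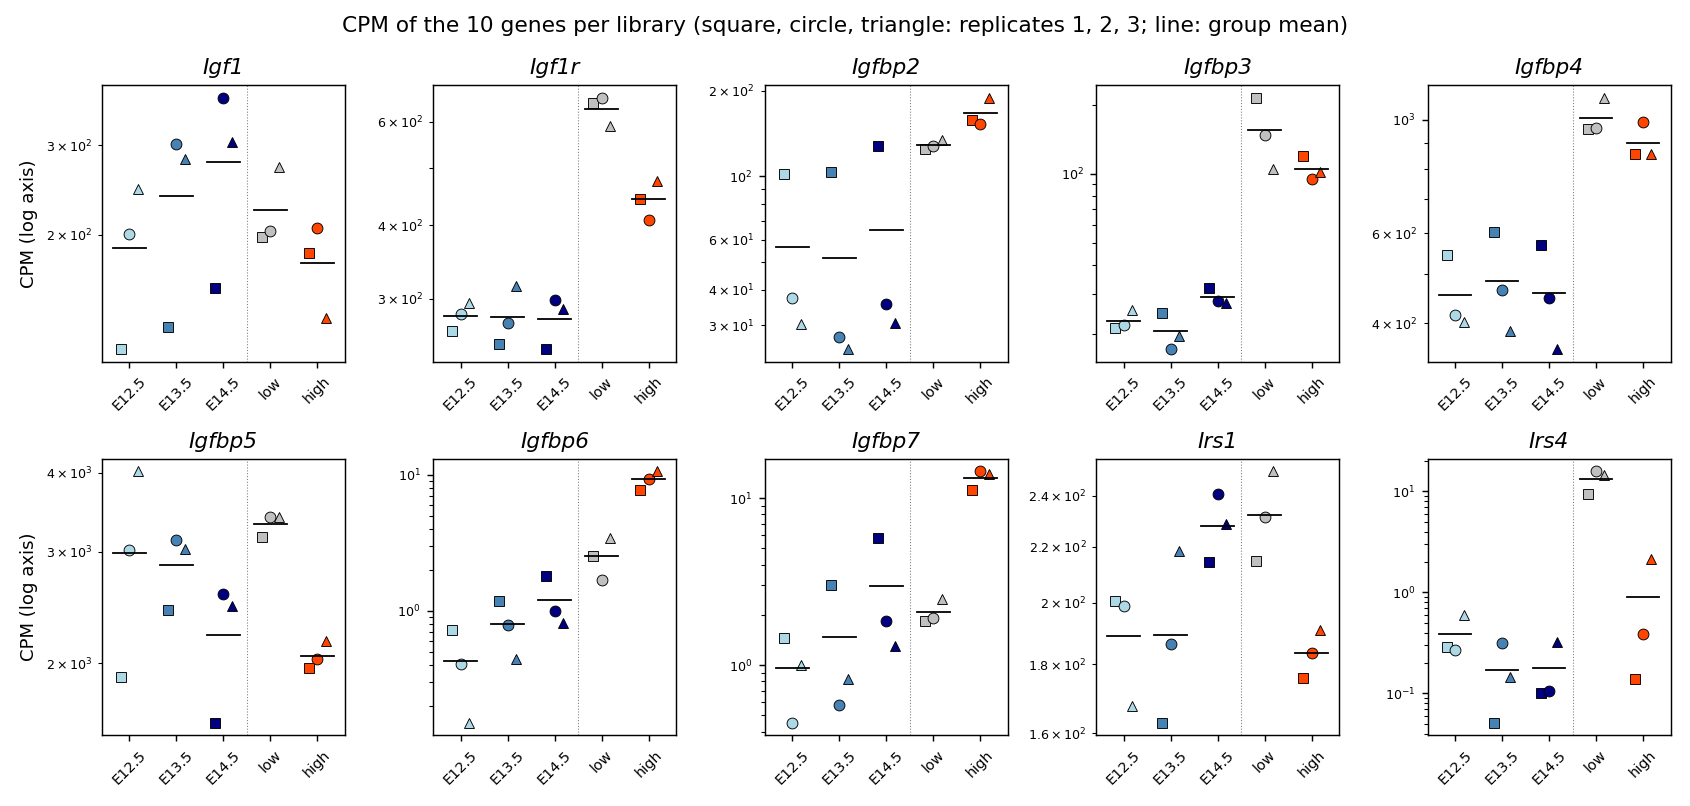
CPM of each of the 10 genes (log axis, scaled within each of the 2 tables) in the 9 fresh and 6 cultured libraries; squares, circles and triangles are replicates 1, 2 and 3, and the line is the group mean. Igfbp6 and Igfbp7 lie highest in the 3 high pressure libraries, and Irs4 stands at 9.54 to 15.8 CPM only in the low pressure group.

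Igf1 encodes the ligand (mm10, chromosome 10, 87858265 to 87937042, plus strand). Its level was 198, 203 and 271 CPM in the low pressure libraries 1 to 3 and 184, 206 and 137 CPM in the high pressure ones. The groups overlapped, with a log2 fold change of -0.35 (SE 0.17), and this difference was 0.00 once offsets for gene length and GC content were fitted. The other ligand gene, Igf2, the main fetal growth factor of the family, had 3934, 4228 and 4026 CPM at low and 3555, 4630.5 and 4472 CPM at high pressure, again overlapping (log2 fold change 0.05, SE 0.12, edgeR adjusted p = 0.77). Set per kilobase of exon (RPKM), Igf2 stood at 709.9 ± 26.3 and Igf1 at 22.6 ± 4.14 (SD, n = 3) at low pressure. Ins2 had 0 counts in all 15 libraries.

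In the fresh lungs Igf1 was higher at each later stage inside each replicate number. Replicate 1 had 119, 132 and 157 CPM from the first to the last stage, replicate 2 had 200.4, 301 and 372, and replicate 3 had 246, 282 and 304. The stages overlapped when the numbers were ignored, since replicate 1 was lowest at every stage. The log2 fold change from E12.5 to E14.5 was 0.56 (SE 0.43) without and 0.53 (SE 0.10) with the replicate block. Of these fits only the one with the block called Igf1 higher. Over 19 alternative settings it was called in 5, a fit of replicates 2 and 3 alone without a block among them.

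Igf1r encodes the receptor (chromosome 7, 67952827 to 68233668, plus strand). It stood at 645, 659.9 and 591 CPM at low and 444, 409 and 476 CPM at high pressure. Every high pressure library lay below every low pressure library, with a log2 fold change of -0.51 (SE 0.10). Igf1r has the longest exon sequence of the 10 genes, 16791 bases, and with length and GC offsets its log2 fold change was -0.26 and it was no longer called. Across the stages the 9 libraries kept to 246 to 315 CPM, with a log2 fold change of -0.02 (SE 0.07) between E14.5 and E12.5 in the fit with the block. The level was thus lower in all fresh than in all cultured libraries, a comparison across 2 separately deposited tables that has no test.

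The 6 binding protein genes differ widely in level. Per kilobase of exon Igfbp5 was highest at low pressure (553 ± 22.9 RPKM, SD, n = 3), followed by Igfbp4 (229 ± 18.9), Igfbp2 (69.9 ± 2.61), Igfbp3 (49.7 ± 17.7), Igfbp6 (2.30 ± 0.776) and Igfbp7 (1.72 ± 0.295). Neighbours in this order that did not separate beyond their spread were Igfbp2 with Igfbp3 and Igfbp6 with Igfbp7. The level summed over the 6 was 906 ± 22.1 RPKM (SD, n = 3) under low pressure and 689 ± 25.9 RPKM (SD, n = 3) under high pressure.

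The share of Igfbp5 in that sum was 61.1% ± 1.54 (SD, n = 3) in low pressure libraries and 49.6% ± 1.12 (SD, n = 3) in high pressure libraries. Igfbp2 made up 7.72% ± 0.107 and 13.1% ± 1.28, and Igfbp4 25.2% ± 1.53 and 29.7% ± 2.53. Igfbp7 went from 0.190% ± 0.0279 to 1.58% ± 0.169 and Igfbp6 from 0.253% ± 0.0815 to 1.20% ± 0.141. Of the 6 genes only Igfbp3 had shares that overlapped between the pressures, 3.60% to 7.75% at low and 4.34% to 5.75% at high. Shares sum to 100%, so the lower share of Igfbp5 raises the others. They also rest on RPKM without length and GC offsets, under which the pressure difference of Igfbp2 turned its sign (below).

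**Figure D2:**
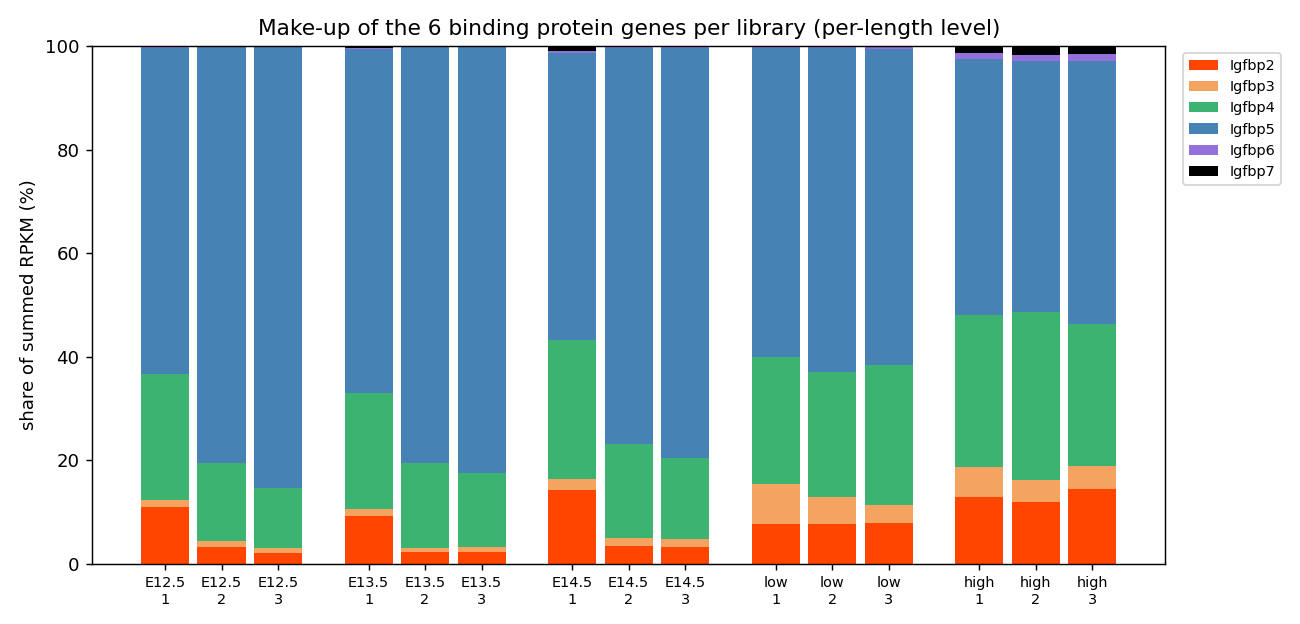
Share of each binding protein gene in the summed RPKM of the 6 (vertical axis, percent) for each of the 15 libraries, grouped by stage or pressure. Igfbp5 holds the largest share in every library and averages 61.1% at low against 49.6% at high pressure; in the fresh lungs replicate 1 has the smallest Igfbp5 share of its stage.

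Igfbp5 encodes a binding protein that attaches to extracellular matrix (chromosome 1, 72857932 to 72874884, minus strand). It stood at 3165, 3401 and 3405 CPM at low and at 1963, 2027 and 2169 CPM at high pressure. The groups did not overlap, with a log2 fold change of -0.69 (SE 0.09). With length and GC offsets it was -0.68 and still called, while in a single fit of all 15 libraries it was -0.70 and not called. Igfbp2, a binding protein gene expressed in many fetal epithelia, is its neighbour: the 2 genes face each other tail to tail on chromosome 1 with 5457 bases between their ends.

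Igfbp2 (chromosome 1, 72824503 to 72852474, plus strand) differed in the other direction. It had 125, 128 and 134 CPM at low and 158, 152 and 189 CPM at high pressure, with no overlap and a log2 fold change of 0.37 (SE 0.10). This difference was the least stable of the set. It was called without the replicate block and not with it (log2 fold change 0.36), and with length and GC offsets its sign turned, to -0.11. Igfbp2 also varied with replicate in the fresh lungs, where replicate 1 had 102, 103 and 128 CPM at the 3 stages and replicates 2 and 3 had 24.8 to 37.4 CPM. Those replicate 1 libraries are the ones with the high ribosomal protein share, and the high pressure libraries also have the higher share; the part of the share in the pressure difference cannot be told apart from pressure.

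Igfbp7, a secreted protein with low affinity for IGFs (chromosome 5, 77349240 to 77408041, minus strand), differed most among the binding proteins. It had 1.83, 1.93 and 2.49 CPM at low pressure (59, 74 and 78 counts). At high pressure it had 11.1, 14.48 and 13.9 CPM (478, 637 and 552 counts). All high pressure libraries lay above all low ones, and the log2 fold change was 2.66 (SE 0.22), or 2.11 with length and GC offsets, called in both fits. Exons of Igfbp7 overlap Polr2b on the other strand, and the strand setting of the counting is not given in the sources used here; Polr2b itself had 170.0 to 198 CPM at low and 175 to 190.0 CPM at high pressure. Igfbp7 is often used as a marker of blood vessels, and the summed level of the 6 endothelial markers was 215 to 355 CPM at low and 96.4 to 221 CPM at high pressure. Of these 6 markers 0 had a positive log2 fold change, and the median was -1.13. They were called lower in 2 of 6 cases without and 5 of 6 with the replicate block, against 1816 and 1420 of all 14937 genes. The marker list and Igfbp7 thus differed in opposite directions. The part of vessel cells in the Igfbp7 difference was not tested.

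Igfbp6, whose product prefers IGF2 (chromosome 15, 102144362 to 102149511, plus strand), had 2.55, 1.69 and 3.42 CPM at low and 7.79, 9.35 and 10.6 CPM at high pressure. The groups did not overlap, and the log2 fold change was 1.86 (SE 0.29), or 1.27 with length and GC offsets, called in both fits. Igfbp6, Igfbp7 and Igfbp2 have the shortest exon sequence of the 10 genes, with 1112, 1209 and 1847 bases, and they are also the 3 that were higher at high pressure. In the fresh lungs all 3 were highest in replicate 1 of every stage. The parts of the ribosomal share and of gene length in the pressure differences of the 3 genes cannot be told apart from pressure.

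**Figure D3:**
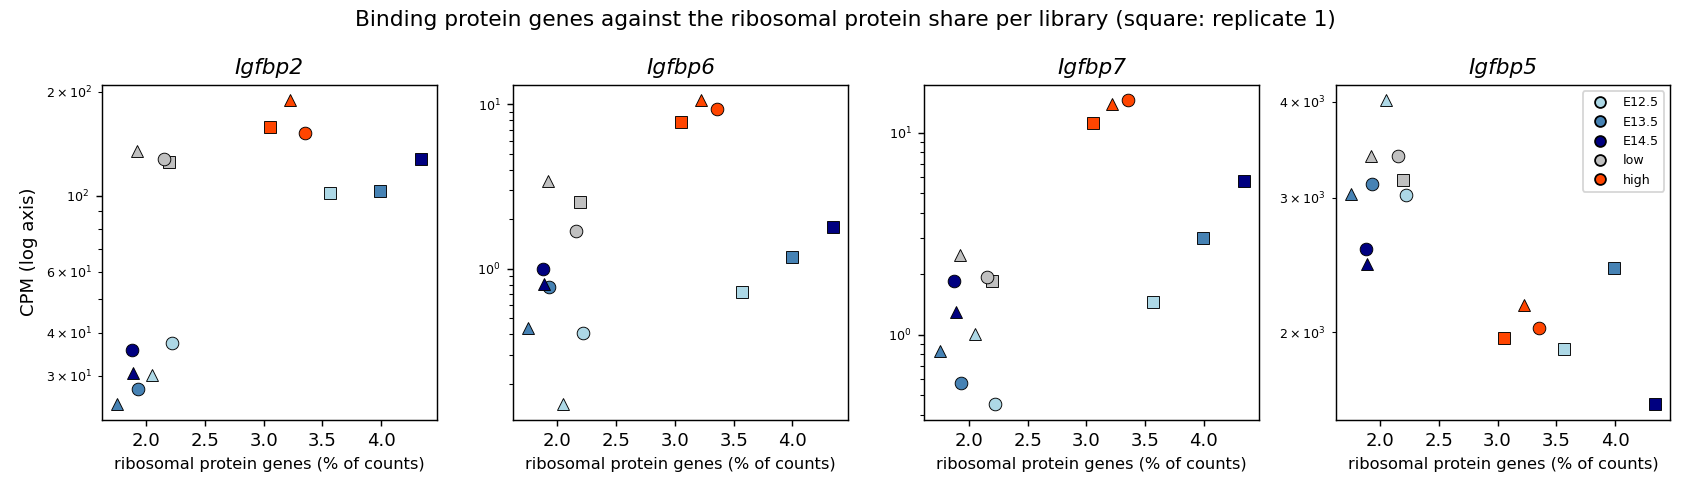
CPM (log axis) of Igfbp2, Igfbp6, Igfbp7 and Igfbp5 against the share of counts in ribosomal protein genes (percent) for all 15 libraries, coloured by group; squares are replicate 1. The high pressure libraries (3.05% to 3.36%) and the fresh replicate 1 libraries (3.57% to 4.34%) lie to the right. Within the cultured table Igfbp5 is lower and Igfbp2 higher in the 3 libraries on the right, and within each fresh stage the same holds for replicate 1.

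The promoters of these genes are shown because Igfbp6 and Igfbp7 were higher and Igfbp5 lower at high pressure. Each line gives 250 bases before and 50 after the start that RefSeq annotates on GRCm38.p6, read 5′ to 3′ on the gene's own strand: Igfbp7 at chr5:77407996-77408295, Igfbp6 at chr15:102143936-102144235 and Igfbp5 at chr1:72874816-72875115. Capitals mark matches on either strand to the GC box (GGGCGG), the TATA box (TATAAA) and the core of the TEAD site (GGAATG), and no match overlapped another.
Igfbp7: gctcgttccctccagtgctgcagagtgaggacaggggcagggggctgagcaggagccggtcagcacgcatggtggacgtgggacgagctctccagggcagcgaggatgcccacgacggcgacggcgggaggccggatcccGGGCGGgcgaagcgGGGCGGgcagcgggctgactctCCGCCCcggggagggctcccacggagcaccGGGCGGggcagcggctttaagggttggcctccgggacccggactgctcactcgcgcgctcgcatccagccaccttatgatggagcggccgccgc
Igfbp6: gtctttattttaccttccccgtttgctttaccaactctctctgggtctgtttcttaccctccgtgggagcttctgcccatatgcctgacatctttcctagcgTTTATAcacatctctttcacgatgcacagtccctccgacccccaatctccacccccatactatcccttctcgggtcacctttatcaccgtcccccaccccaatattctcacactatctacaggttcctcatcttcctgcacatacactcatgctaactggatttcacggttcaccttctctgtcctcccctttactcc
Igfbp5: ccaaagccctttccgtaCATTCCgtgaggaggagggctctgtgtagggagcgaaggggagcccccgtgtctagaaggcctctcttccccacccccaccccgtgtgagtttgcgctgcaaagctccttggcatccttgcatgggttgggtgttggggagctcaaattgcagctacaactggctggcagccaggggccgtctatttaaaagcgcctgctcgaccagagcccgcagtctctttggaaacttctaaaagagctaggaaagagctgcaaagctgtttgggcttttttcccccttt

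The Igfbp7 window held 4 GC boxes at a GC content of 73.3%, and the Igfbp6 window held none, at a GC content of 49.7%. Its 1 match to the TATA box letters was on the opposite strand. The Igfbp6 window ends at 102144235, upstream of the gene start given above (102144362), so it does not reach that start. The Igfbp5 window held 1 TEAD core. Among 32851 RefSeq promoters of the same length 35.7% held a GC box, 13.6% a TATA box and 14.7% a TEAD core. Igfbp6 and Igfbp7 shared no kind of match in these windows.

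Igfbp3, the main carrier of IGFs in blood (chromosome 11, 7206086 to 7213923, minus strand), had 215, 148 and 105 CPM at low and 119, 94.5 and 102 CPM at high pressure. The groups overlapped, and the log2 fold change of -0.57 (SE 0.23) rested in part on low pressure replicate 1, without which it was -0.26. Igfbp3 was higher in every cultured than in every fresh library, where it spanned 17.2 to 31.8 CPM, again across 2 tables. Igfbp4, a binding protein that restrains IGF action until it is cut (chromosome 11, 99041244 to 99054392, plus strand), had 960.4, 964 and 1106 CPM at low and 858, 993 and 858 CPM at high pressure. Its groups overlapped too, with a log2 fold change of -0.16 (SE 0.10).

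Irs1 encodes a main docking protein of the receptor (chromosome 1, 82233101 to 82291416, minus strand). It had 215, 231 and 250.3 CPM at low and 176, 183 and 191 CPM at high pressure. The groups did not overlap, and the log2 fold change was -0.34 (SE 0.09). It was called without the replicate block and not with it, and with length and GC offsets it was -0.23 and not called. In all, Irs1 was not called in 8 of 13 alternative fits.

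Irs4 is the X-linked member of the same family (chromosome X, 141710998 to 141725263, minus strand). At low pressure it had 9.54, 15.8 and 14.7 CPM, from 307, 609 and 460 counts. At high pressure it had 0.140, 0.387 and 2.16 CPM, from 6, 17 and 86 counts. The groups did not overlap. The log2 fold change of -3.91 (SE 0.76) depended in size on high pressure replicate 3, without which it was -5.65, and it was called in each of the 13 alternative fits. In the fresh lungs Irs4 had 1 to 12 counts per library (0.0511 to 0.601 CPM) and did not pass the filter on low counts, so that of all 15 libraries the 3 at low pressure were the only ones above 86 counts. Exons of Irs1 and Irs4 overlap predicted genes on the other strand (Gm9747 and Gm15295), which are not analysed here. The Irs4 promoter, shown because Irs4 differed most between the pressures, lies at chrX:141725168-141725467 and held 2 GC boxes, marked in capitals as above.
Irs4: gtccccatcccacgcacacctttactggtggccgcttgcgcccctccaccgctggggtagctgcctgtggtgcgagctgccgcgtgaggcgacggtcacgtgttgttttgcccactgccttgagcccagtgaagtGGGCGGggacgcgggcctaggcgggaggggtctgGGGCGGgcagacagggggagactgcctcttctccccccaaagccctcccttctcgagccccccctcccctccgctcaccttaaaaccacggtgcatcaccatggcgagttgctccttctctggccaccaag

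Across the stages the binding protein and substrate genes moved less than between the pressures. Without the replicate block edgeR called 0 of the 9 members tested between E14.5 and E12.5, against 0% of 14242 genes, with 1 member and 9.32% of genes at an unadjusted p under 0.05. DESeq2 called 0 members and 2.94% of 15523 genes. With the block 3 of 9 were called, all higher (Igf1, Igfbp6 and Igfbp7). Of all genes tested 11.0% were called, 7.33% higher and 3.63% lower. Because the set was chosen with the stage comparisons known too, nothing is read from the member counts here or in the stage comparisons below. The members' median log2 fold change with the block was 0.27, beside -0.00 for all genes.

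Igfbp6 had 0.722, 0.406 and 0.150 CPM at E12.5, 1.18, 0.782 and 0.440 at E13.5 and 1.80, 0.997 and 0.810 at E14.5. Every E14.5 library lay above every E12.5 library, and the log2 fold change with the block was 1.53 (SE 0.39), from 27 counts in all at E12.5 and 70 at E14.5. Igfbp7 had 1.44, 0.451 and 1.0 CPM at E12.5, 3.01, 0.573 and 0.831 at E13.5 and 5.75, 1.84 and 1.30 at E14.5. It was higher at E14.5 in 3 of 3 replicate numbers although the stages overlapped, and the fit with the block gave 1.495 (SE 0.37) on the log2 scale. The 2 genes were therefore higher both at E14.5 against E12.5 and at high against low pressure. The 2 tables share no library, but the members were chosen with both comparisons known, so nothing is read from this match.

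Igfbp5 had 1904, 3022 and 4022 CPM at E12.5, 2429, 3128 and 3028 at E13.5 and 1609.9, 2570.1 and 2458 at E14.5. It was lower at E14.5 than at E12.5 in 3 of 3 replicate numbers, with a log2 fold change of -0.40 (SE 0.13) that was not called. Irs1 had 201, 199 and 167 CPM at E12.5 and 215, 241 and 229 at E14.5, without overlap (log2 fold change 0.27, SE 0.11, not called). Igfbp3 had 21.3, 21.8 and 25.4 CPM at E12.5, 24.8, 17.2 and 19.7 at E13.5 and 31.8, 28.0 and 27.2 at E14.5. It was the only member called between E14.5 and E13.5 with the block (log2 fold change 0.50, SE 0.12), where 6.01% of all genes were called; without the block 0 members and 0% of genes were called, with 1 member and 6.86% of genes at an unadjusted p under 0.05, and DESeq2 called 0 members and 1.70% of 15887 genes.

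Igfbp4 spanned 356 to 604 CPM over the 9 fresh libraries and differed by a log2 fold change of 0.01 (SE 0.24) between E14.5 and E12.5. Between E13.5 and E12.5 edgeR called 0 of 9 members in either fit, against 0% of genes without the block and 0.00702% with it. At an unadjusted p under 0.05 there were 0 and 3 members beside 0.864% and 3.88% of genes, and DESeq2 called 0 members and 0 of 18805 genes. The test of the second step against the first called 0 members, against 0% and 0.0211% of genes, with 0 and 2 members beside 1.64% and 7.76% of genes at an unadjusted p under 0.05. DESeq2 called 0 members and 4 of 18805 genes there. Signs of the stage difference with the block and of the pressure difference were the same for 6 of 9 members. Among all 14017 genes tested in both the share was 55.8%. Nothing is read from this count either, since the members were chosen with both comparisons known. Igf1, Igfbp3 and Irs1 were higher at E14.5 and lower at high pressure.

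**Figure D4:**
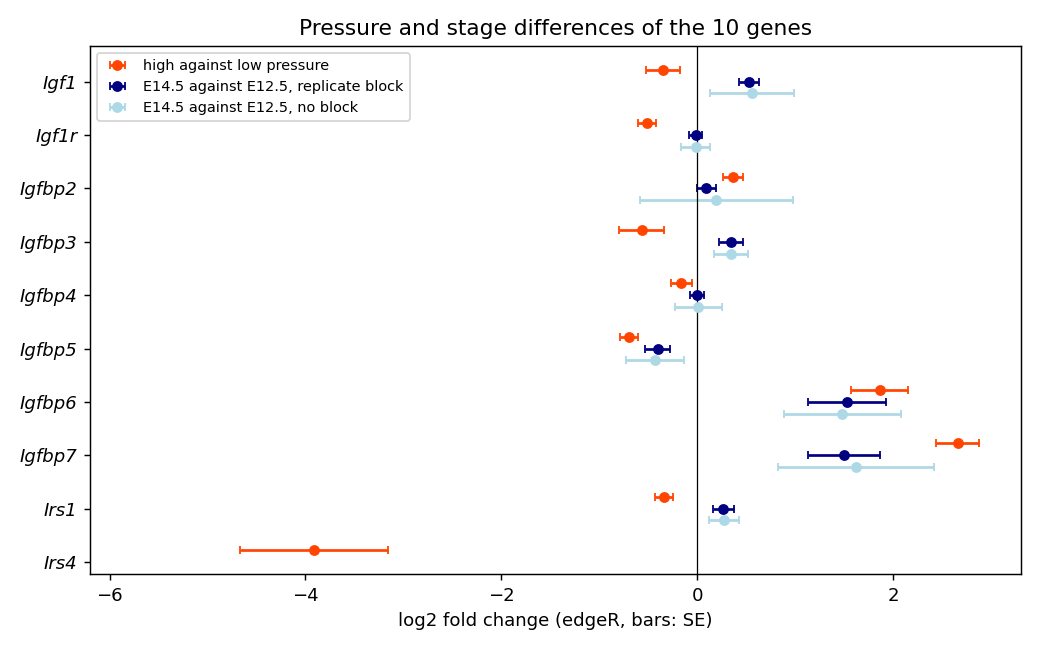
Log2 fold change (horizontal axis, edgeR, bars are 1 SE) of the 10 genes between high and low pressure and between E14.5 and E12.5 with and without the replicate block. Igfbp6 and Igfbp7 lie right of 0 in all fits, Igf1 changes side between pressure and stage, and Irs4 (-3.91) has a pressure value alone.

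Cell type markers moved along with these differences. The summed level of 6 of 6 epithelial markers was 621 to 733 CPM at low and 1431 to 1520.1 CPM at high pressure. That of 8 of 8 lung mesenchyme markers was 3625 to 4452 and 5777 to 7084 CPM, a sum carried by the collagen genes Col1a1 (group means of 1099 and 2524 CPM) and Col1a2 (1643 and 3200 CPM). Of the 8 genes 3 were called higher (Col1a1, Col1a2 and Tbx4) and 4 lower (Foxf1, Pdgfra, Tbx5 and Twist2), with a median log2 fold change of 0.04. Of all genes tested 14.0% were called higher and 12.2% lower. The summed level of 6 of 6 cartilage markers was 450.0 to 619 and 268 to 374 CPM, and that of 6 of 6 mesothelial markers was 271 to 288 and 312 to 438 CPM. Striated muscle markers (7 of 7), of heart and skeletal muscle, summed to 13.7 to 88.6 CPM at E12.5 and 604 to 2449 CPM at E14.5, and erythroid markers (6 listed, 1 at 0 counts) to 2702 to 3231 and 513 to 1381 CPM. The part of these cell types in the differences of the 10 genes was not tested.

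Genes whose level ran most like that of a member were found by the smaller of 2 Pearson correlations of log2 CPM, over the 6 cultured and over the 9 fresh libraries. These points share library depth, the group differences and, in the fresh lungs, the offset of replicate 1. Each named gene was also picked as closest among 10114 or 10115 genes, so the values are descriptive. Igfbp7 was closest to Mvp (0.96 and 0.95) and to Pdpn (0.97 and 0.95), a gene of alveolar type I epithelium and mesothelium. Igfbp6 was closest to Plp2 (0.97 and 0.96) and Sema4b (0.94 and 0.94). Igfbp5 was closest to Il17rd (0.98 and 0.98), which encodes an inhibitor of FGF signalling, and Npas3 (0.98 and 0.98), and Igfbp2 to Bcat2 (0.97 and 0.98) and Snrnp25 (0.96 and 0.96).

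The nearest genes of Igf1 were Arrdc4 (0.95 and 0.95) and Entpd7 (0.93 and 0.95), and those of Igf1r were Snapc1 (0.98 and 0.97) and Whsc1l1 (0.96 and 0.94). Irs1 was closest to Etv1 (0.94 and 0.92), a transcription factor gene induced by FGF signalling, and Arap2 (0.92 and 0.90). The likeness was weaker for Igfbp3 (l7Rn6, 0.82 and 0.87, and Gnpda2, 0.79 and 0.85), Igfbp4 (Wdyhv1, 0.91 and 0.89, and Echs1, 0.95 and 0.89) and Irs4 (Slc25a38, 0.95 and 0.89, and Xpc, 0.88 and 0.86). The fresh values of Irs4 rest on 1 to 12 counts per library.

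The other 49 listed genes of the pathway, which leave out the 10 members, were compared next. At high pressure 9 of the 46 genes tested rose and 6 fell in edgeR, with a median log2 fold change of -0.05. Of all genes tested 26.1% were called, 14.0% higher and 12.2% lower. Within the list 3 of 4 genes for proteases that cut binding proteins rose and both genes for their inhibitors fell. The fourth protease gene, Adamts1, was not called. The gene lists were chosen with earlier results of these data known. No joint shift of proteases and inhibitors is therefore read from these counts. The adjusted p-values of single pathway genes, above and below, are descriptive for the same reason.

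Pappa2, a protease that releases IGFs from Igfbp5 and Igfbp3, rose from 122, 112 and 127 CPM to 243, 205 and 252 CPM (log2 fold change 0.96, SE 0.10, edgeR adjusted p = 0.0010). Htra1, a secreted serine protease, rose from 10.7, 7.83 and 14.4 CPM to 25.1, 32.6 and 32.0 CPM (log2 fold change 1.45, SE 0.22, edgeR adjusted p = 0.0032). Pappa, which cuts Igfbp4, rose from 195, 174 and 204 CPM to 233, 236 and 295 CPM (log2 fold change 0.42, SE 0.12, edgeR adjusted p = 0.032). In these 3 genes no high pressure library overlapped the low pressure ones, which was so for 46.8% of all genes tested.

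The stanniocalcins Stc1 and Stc2 encode secreted inhibitors of these 2 pappalysins. Stc1 fell from 52.8, 50.7 and 22.1 CPM to 14.2, 11.9 and 14.9 CPM (log2 fold change -1.61, SE 0.30, edgeR adjusted p = 0.0064). Stc2 fell from 46.0, 55.7 and 109 CPM to 22.7, 13.1 and 27.3 CPM (log2 fold change -1.74, SE 0.36, edgeR adjusted p = 0.0098). Pappa2, Stc1 and Stc2 were called in all 13 alternative fits, Htra1 in 12 and Pappa in 7. Grb14 and Socs3, described next, were called in 10 and 12.

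Among the 12 substrates and adaptors Grb14, an adaptor that inhibits insulin receptor signalling, rose by a log2 fold change of 1.36 (SE 0.35, edgeR adjusted p = 0.023). Socs3, a feedback inhibitor of cytokine and insulin signalling, rose by 0.74 (SE 0.11, edgeR adjusted p = 0.0031), and Shc1 fell by 0.32 on the log2 scale (SE 0.10, edgeR adjusted p = 0.042), but was not called in 8 of 13 alternatives, the replicate block among them. The other 9 were not called, Irs2 among them (log2 fold change -0.19, SE 0.13, edgeR adjusted p = 0.29). Of the 3 receptor genes Insr, the insulin receptor, fell from 249, 252 and 275 CPM to 198, 173 and 213 CPM (log2 fold change -0.41, SE 0.10, edgeR adjusted p = 0.020). With length and GC offsets Insr was at -0.15 and not called, and in all it was not called in 6 of 13 alternatives. Igf2r, which clears IGF2, had 933 to 1081 CPM at low and 938 to 1078 CPM at high pressure.

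Of 19 genes of the PI3 kinase, AKT and mTOR branch 3 rose and 2 fell. Akt2 (log2 fold change 0.40), Pik3r1 (0.38) and Pik3r2 (0.42, not called with length and GC offsets) rose, and Gsk3b, a kinase that AKT inhibits, fell by 0.59 on the log2 scale. In the 13 alternative fits Akt2 and Pik3r1 were each called in 9, Pik3r2 in 7 and Gsk3b in 12. Rictor, a subunit of mTOR complex 2, fell by 0.35 on the log2 scale, but was not called with the replicate block and turned to 0.04 with length and GC offsets. Only 4 of the 13 alternative fits called Rictor. Of the 4 genes for FOXO transcription factors only Foxo4 was called (log2 fold change 0.49). Igfbp1 had 0 to 7 counts in each library and was not tested. The number of pathway genes called was 8 or 9 when low pressure replicate 2 or any 1 of the high pressure replicates was left out, with 1894 to 2632 of all genes called against 3905 with every library. It was 5 in a single fit of all 15 libraries, which called 1121 of 14940 genes.

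**Figure D5:**
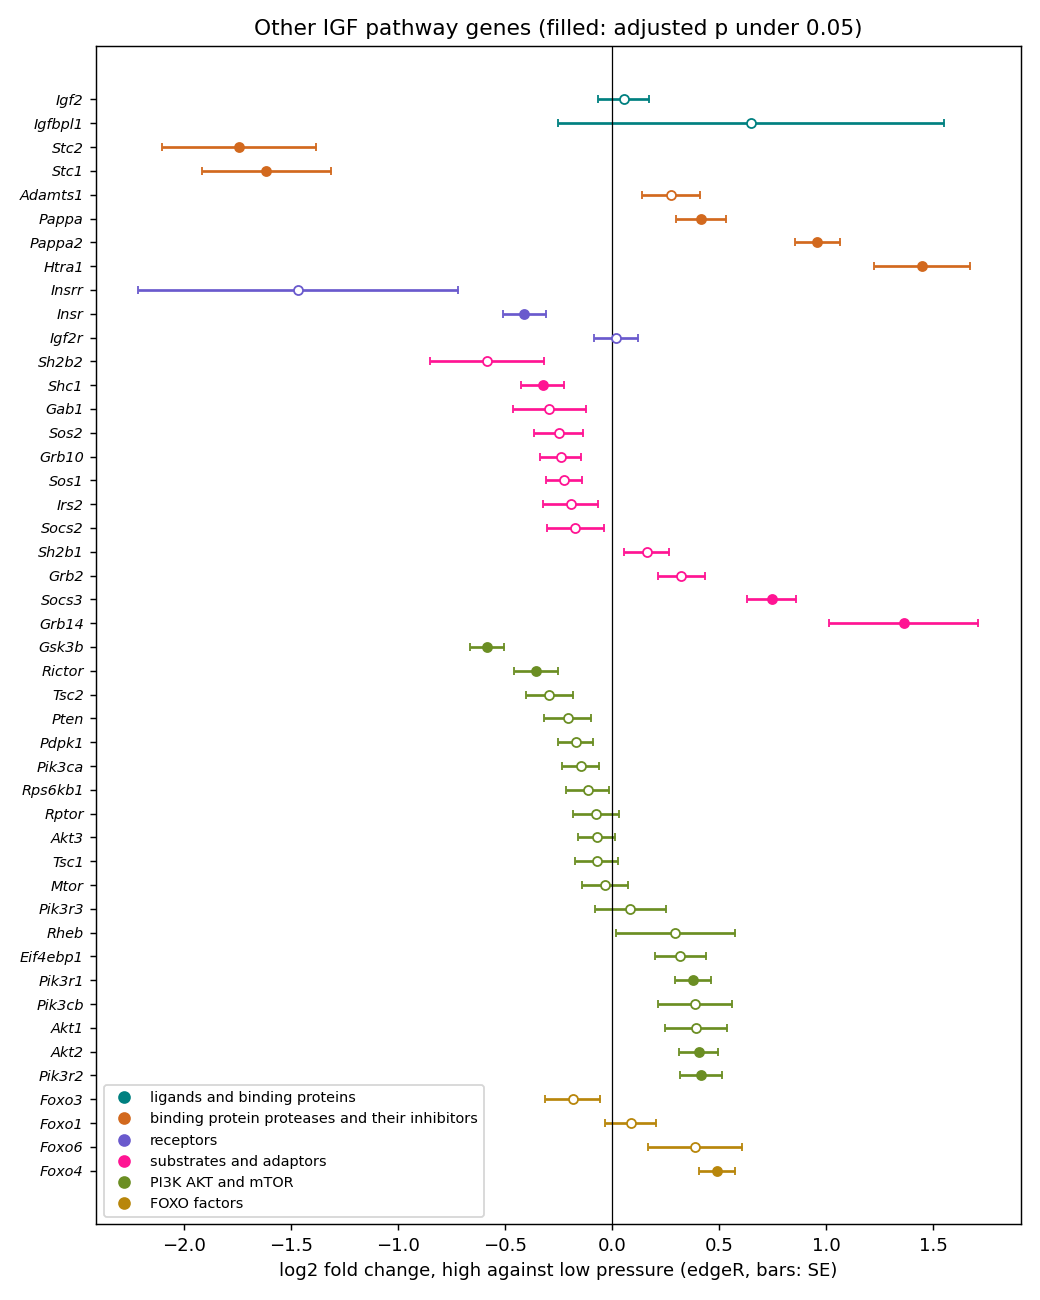
Log2 fold change between high and low pressure (horizontal axis, edgeR, bars are 1 SE) of the 46 other pathway genes tested, coloured by role; filled points passed an adjusted p of 0.05. The proteases Htra1, Pappa2 and Pappa lie right of 0. Stc1 and Stc2, inhibitors of Pappa and Pappa2, lie farthest left among the filled points.

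Between E14.5 and E12.5 edgeR called 0 of the 46 pathway genes without the block and 4 with it, where 0% and 11.0% of all genes were called. Without the block 2 pathway genes and 9.32% of all genes had an unadjusted p under 0.05, and DESeq2 called 0 pathway genes and 2.94% of all genes. Htra1 rose from 3.42, 1.58 and 0.601 CPM at E12.5 to 8.56, 6.45 and 4.37 CPM at E14.5, with no overlap (log2 fold change with the block 1.92, SE 0.27, edgeR adjusted p = 0.0026). Grb14 rose by a log2 fold change of 1.08 (SE 0.21, edgeR adjusted p = 0.013) and Stc1 by 0.62 (SE 0.16, edgeR adjusted p = 0.033). Irs2 fell by 0.36 on the log2 scale (SE 0.10, edgeR adjusted p = 0.047). Stc1 thus rose with stage and fell at high pressure, while Htra1 and Grb14 rose in both comparisons. Igf2 differed by a log2 fold change of 0.07 (SE 0.08, edgeR adjusted p = 0.61), Igf2r by 0.47 (SE 0.19, edgeR adjusted p = 0.16) and Insr by 0.04 (SE 0.08, edgeR adjusted p = 0.81) with the block.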

How the data were processed

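Total RNA of pooled embryonic lungs was sequenced in 15 libraries, which the labels place in 5 groups of 3. Per the submitters' processing notes, cutadapt 1.6, Bowtie 1.1.1, TopHat, HTSeq and DESeq2 were used on mm10. For annotation, filters and strand setting, the choices were not given in the sources used here. The authors deposited whole-number raw read counts for 23420 genes in 2 tables, of 6 cultured and 9 fresh libraries; 6 further deposited tables hold scaled or log values and were not used.

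The tables were tested separately by edgeR 4.0.16 (R 4.3.3) with TMM factors, filterByExpr, a robust quasi-likelihood fit and F-test, and Benjamini-Hochberg adjustment over all genes tested with a threshold of 0.05. CPM used TMM effective library sizes, and RPKM divided CPM by the union of GENCODE M21 exons. The SE was the log2 fold change divided by the square root of F. The self-test on simulated counts recovered nearly all changed genes. Its counts had the same dispersion for every gene and no offset of replicate 1. It therefore does not measure power or error in the fresh or in the cultured libraries.

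The members and the gene lists were chosen with earlier results of these data known. The named genes were all members, the called pathway genes (at most 4 of smallest p for each role), Igf2, Igf2r, Insr, Irs2 and Igfbp1, and for each member the 2 most alike genes with at least 5 CPM on average in each table. Alternatives were RLE scaling, no filter, DESeq2 1.42.0, a replicate block, leaving out libraries, and a joint fit. Offsets for length and GC (loess within each library, 94.0% and 94.2% of the genes tested in the cultured and fresh table) and a fit of replicates 2 and 3 alone were chosen after seeing the data.

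Same-numbered fresh libraries correlated in their deviations from group means at 0.490 to 0.880 (9 pairs), against -0.794 to 0.704 for 18 other pairs. All 9 values lie above 0.1, so the numbers were used as a block, but this comes from the data, since no label says what a number marks, and it rests mainly on replicate 1; among replicates 2 and 3 a shared number gave no closer likeness. The cultured pairs were at -0.0213 to 0.0184. Promoter sequences are from RefSeq on GRCm38.p6, and all 10 members matched.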

Additional observations from a re-analysis of the deposited data

How the results depend on the processing

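Of the 10 genes, Igfbp6, Igfbp7 and Irs4 were called between the pressures, in the direction given, in all 13 alternatives, and Igfbp5 in 12. These fits reuse the libraries on which the set was chosen. They show how the calls depend on the processing and are no independent support for them. Leaving out 1 library at a time gave 5 to 8 members called and 8 to 21 other pathway genes, where 1894 to 6257 of all genes were called. A single fit of all 15 libraries gave 4 members and 5 pathway genes (1121 of all genes). With length and GC offsets 4 members were called (2978 of all genes), and with the replicate block as well 5 members and 8 pathway genes (2160). These offsets turned Igfbp2 to -0.11 (-0.12 with the block) and Rictor to 0.040 (0.039 with the block) on the log2 scale, and neither was then called.

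Between E14.5 and E12.5 the replicate block raised the count from 0 to 3 members and to 4 pathway genes, and that of all genes from 0 to 1561. With the block it was 1 member and 5 pathway genes without replicate 1 (1187 of all genes), 1 pathway gene without replicate 2 (314), and 2 members and 3 pathway genes without replicate 3 (852). The block with length and GC offsets gave 3 members and 7 pathway genes (1951). Replicates 2 and 3 alone, without a block, gave 2 members and 4 pathway genes (1119). Leaving out 1 library, with no block, gave 0 members and pathway genes in each stage comparison and 0 to 3 of all genes. Between E14.5 and E13.5 the block gave 1 member (856 of all genes), with the block but without replicate 3 also 1 (918), and 2 with the offsets (1014). In the cultured lungs the block changed the member calls of Igfbp2 and Irs1 alone.

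Limits are the 3 libraries a group, the few counts of Igfbp6, Igfbp7 and Irs4 in fresh lungs, the shared change of ribosomal protein share and pressure, and pool sizes that differ between groups.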
